A study of Drosophila melanogaster with 12 samples.

Results

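The 44 genes described here encode the engine and the apparatus of cell division in Drosophila melanogaster: the cyclins and their kinases, the E2F and RB regulators of entry into S phase, the mitotic kinases, the spindle checkpoint, the activators and targets of the anaphase-promoting complex (APC/C), mitotic kinesins, and centromere and kinetochore proteins. They were taken by FlyBase symbol, with Mps1 read as FBgn0000063, from a table of read counts with 17494 genes. The rule itself used no measured value, but the members were chosen with earlier results of these data known. The 44 genes were all present in the table, and all 44 were among the 7328 genes with enough reads to be tested. The cells were S2 cells, an embryo-derived line with features of hemocytes (blood cells), grown in culture and sampled after 48 hours. There were 4 groups of 3 libraries, 12 libraries in all: a DMSO control, and TMPyP4 at 25, 50 or 100 µmol/L. TMPyP4 is a cationic porphyrin that binds G-quadruplexes, folded structures of guanine-rich nucleic acid. The labels give the control as DMSO with a value of 100 µg/L whose meaning they do not state, and they describe every RNA sample as prepared together with zebrafish RNA. All groups shared the same line and medium, no genotype or transgene distinguishes them, and nothing in the labels says that the replicates were separate cultures, so the p-values measure the spread between these libraries, which may be technical.

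As background, the cell cycle is driven by cyclin-dependent kinases (Cdks) that are switched on by cyclins made and destroyed in turn. Cyclin E with Cdk2 starts S phase under the control of E2F and RB, and Cyclins A, B and B3 with Cdk1 drive mitosis once the Cdc25 phosphatase String (stg) has removed an inhibitory phosphate from Cdk1. The spindle checkpoint holds the APC/C in check until every kinetochore is attached, after which Fizzy (fzy) directs the APC/C to destroy securin and the mitotic cyclins. Many of these transcripts are themselves produced in a particular phase, so in a bulk sample fewer cells in a phase and less RNA per cell cannot be told apart.

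Library depth ran from 4669194 to 9662038 gene counts, and the members held 18136 to 46636 of these per library. In DMSO they made up 0.502 ± 0.0194% (SD, n = 3) of all gene counts, compared with 0.458 ± 0.0143% under 25, 0.461 ± 0.0642% under 50 and 0.454 ± 0.0166% under 100 µmol/L. Levels below are scaled read counts (CPM, counts relative to library size) after scaling of library sizes with TMM factors. On that scale the members summed to 4879 ± 18.6 CPM in DMSO (SD, n = 3). The sums were 4446.5 ± 249 at 25, 4812 ± 341 at 50 and 4595 ± 51.7 CPM at 100 µmol/L. DMSO replicate 1 and 50 µmol/L replicate 2 stood apart, as the extremes in how the level of a gene depended on its exonic length: the slope of log2 level on log2 length, relative to the mean over libraries, was 0.264 and -0.222 in these 2 libraries and -0.109 to 0.154 in the other libraries. Of 9 hemocyte markers listed, 8 were in the table; Hml, Pxn, ush, srp and crq were well expressed, while NimC1 and He, also hemocyte markers, were nearly absent with 4 and 21 reads over all 12 libraries. A further marker, eater, was low, with 126 reads. The summed level of those 8 markers was 833 to 1005 CPM in DMSO and 501 to 723 CPM in the 9 TMPyP4 libraries, so it moved with treatment, and its part in the results below was not tested. Hml was the largest part, with 446 CPM on average in DMSO and 237, 271 and 216 at 25, 50 and 100 µmol/L. Group means of srp, Pxn, ush and eater were also below DMSO at each concentration, while crq stayed near its DMSO mean of 86.8, at 93.9, 79.3 and 86.0 CPM. Summed markers of neurons, glia, germ line, somatic gonad, muscle, fat body and olfactory tissue came to 0.757 to 4.04 CPM in any library, and Lsp2, Yp1 and Obp99b had no reads.

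Most members stayed near their DMSO level at each concentration. In the edgeR quasi-likelihood fit, with Benjamini-Hochberg adjustment over all 7328 genes, 2 of the 44 members passed the threshold of 0.05 at 100 µmol/L: stg fell and E2f2 rose. That is 4.55% of the members, close to the 5.17% called among all genes tested (1.58% higher, 3.59% lower). Leaving out 1 library at a time gave 0 calls among the members without 100 µmol/L replicate 2 or replicate 3, beside 1.29% and 1.2% of all genes. It gave 1 without DMSO replicate 1 or replicate 3, beside 1.65% and 2.27%. There were 2 without DMSO replicate 2 and 3 without 100 µmol/L replicate 1, beside 6.12% and 4.02%. At 25 µmol/L edgeR called 0 members, against 1.66% of all genes, with 6 members at an unadjusted p under 0.05 and 0 called by DESeq2. At 50 µmol/L edgeR again called 0 members, against 6.85% of all genes, with 12 members at an unadjusted p under 0.05 and 1 member, Mps1, called by DESeq2. Without 50 µmol/L replicate 1 edgeR called 7 members there, against 16.6% of all genes, and without DMSO replicate 2 it called 2, against 10.3%. Unadjusted p-values under 0.05 were found in 13.6%, 27.3% and 20.5% of members at 25, 50 and 100 µmol/L, against 15.6%, 26.2% and 21.8% of all genes.

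The sizes of the differences were small for most members. The log2 fold change against DMSO lay within 0.5 of 0 for 40, 38 and 41 of the 44 members at 25, 50 and 100 µmol/L. It reached 1 in size for 0, 2 and 3 members. The median log2 fold change of the members was -0.07, -0.04 and -0.04, beside 0.01, 0.02 and 0.01 for all genes tested. At 25 µmol/L 34 members lay below and 10 above DMSO, at 50 µmol/L 24 below and 20 above, and at 100 µmol/L 25 below and 19 above. The share above DMSO was 22.7%, 45.5% and 43.2% of the members, beside 52.5%, 52.6% and 52.2% of all genes tested. With the runs of sample title numbers (described below) as a term in the fit, 10, 22 and 27 members lay above and 34, 22 and 17 below. The balance at 50 and 100 µmol/L thus depended on the fit. The median standard error (SE) of a member's log2 fold change was 0.134, 0.136 and 0.134. The 95% interval lay wholly within 1 log2 unit of no change for 39, 38 and 40 members, so for these a change of 2-fold or more fell outside the interval, and within 0.5 for 26, 22 and 25.

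**Figure D1:**
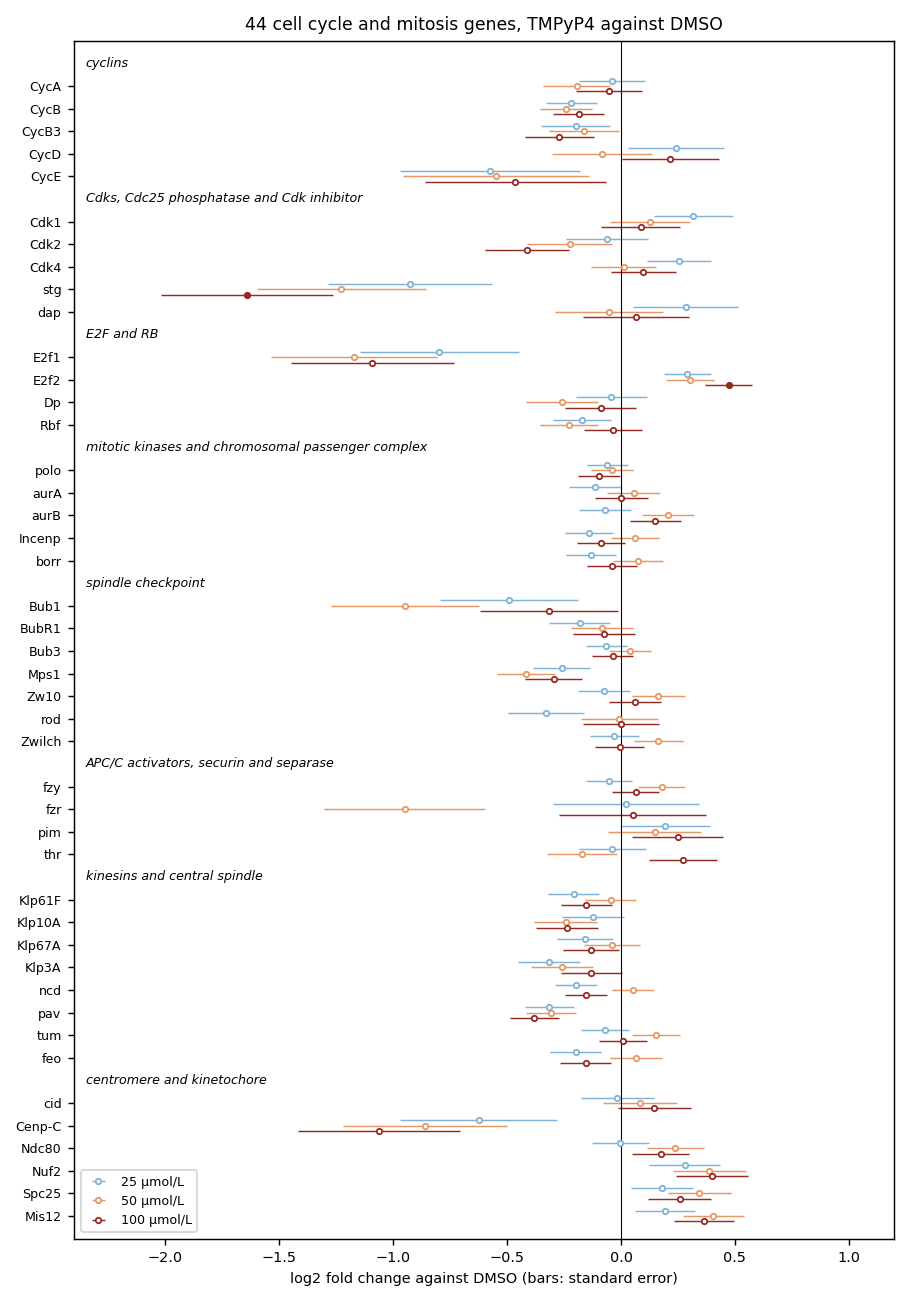
Log2 fold change of each of the 44 members against DMSO at 25, 50 and 100 µmol/L TMPyP4 (horizontal axis, log2 units; bars are the SE), grouped by role; filled points have an edgeR adjusted p under 0.05. Only stg and E2f2 at 100 µmol/L are filled, at -1.64 and 0.47, and most points lie within 0.5 of 0.

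The members differed widely in level before treatment. On a scale of CPM per kilobase of exon, which allows comparison between genes, the highest in DMSO was ncd, a minus-end-directed kinesin of the spindle, at 212 ± 4.68 (SD, n = 3). It was followed by Incenp, the scaffold of the chromosomal passenger complex, at 177 ± 9.68, by the checkpoint protein Bub3 at 167 ± 12.6, by fzy at 153 ± 9.8 and by the kinase aurB at 129 ± 17.1 CPM per kilobase. At the low end stood CycE at 1.31 ± 0.596, fzr at 2.23 ± 0.686, Bub1 at 2.31 ± 1.13 and Cenp-C at 2.71 ± 0.928 CPM per kilobase. Of the 43 pairs of neighbours in this order, 34 had DMSO libraries that overlapped, so the exact rank of most members is not resolved, although the ends of the order are far apart. Related members could differ in level: Incenp exceeded borr, another subunit of the same complex, at 177 ± 9.68 against 55.7 ± 5.28 CPM per kilobase, and the E2F family member E2f2 exceeded E2f1 at 25.3 ± 0.684 against 5.71 ± 1.47.

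**Figure D2:**
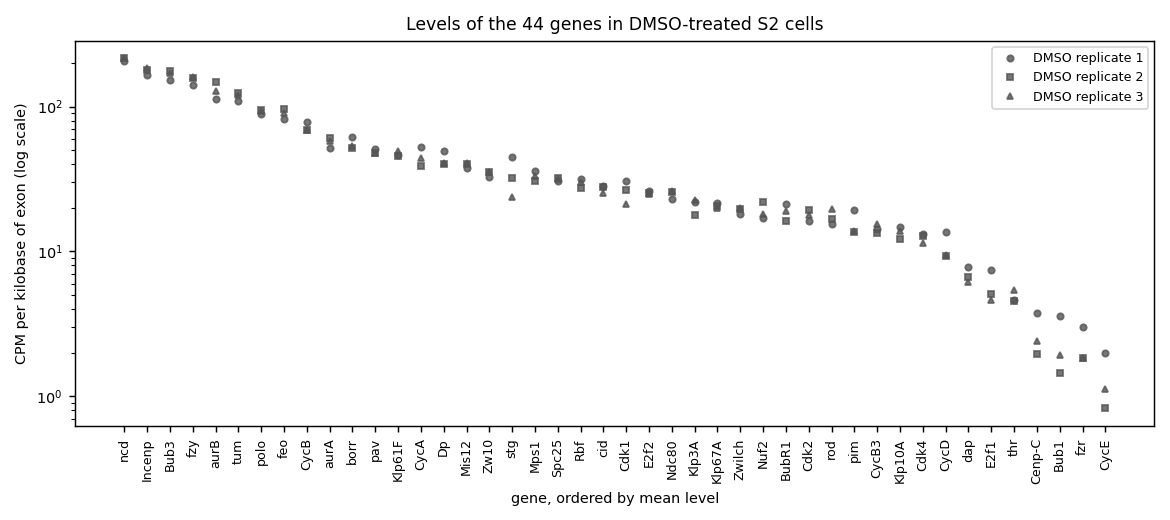
Level of each of the 44 members in the 3 DMSO libraries (1 symbol per replicate), in CPM per kilobase of exon on a log axis, ordered by mean. The order runs from CycE at 1.31 to ncd at 212, with long stretches in the middle where neighbours overlap.

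Among the Cdks and their direct regulators, stg was the member with the largest difference from DMSO at each concentration. It lies at chromosome 3R, 29251826 to 29255800, on the minus strand (dm6 coordinates), and encodes the Cdc25 phosphatase that triggers entry into mitosis. Its levels were 138, 97.7 and 72.7 CPM in DMSO, 28.8, 66.2 and 67.4 at 25, 72.5, 22.4 and 34.6 at 50, and 37.5, 42.5 and 20.5 CPM at 100 µmol/L. The 9 treated libraries were all below the 3 DMSO libraries, although the lowest DMSO library and the highest treated library nearly touched and the DMSO libraries themselves were widely spread. The log2 fold change was -0.93 (SE 0.361, edgeR adjusted p = 0.217) at 25, -1.23 (SE 0.371, adjusted p = 0.0553) at 50 and -1.64 (SE 0.376, adjusted p = 0.0194) at 100 µmol/L. The 95% interval at 100 µmol/L was -2.43 to -0.85, and the fold against DMSO was 0.321. A joint edgeR test across the 4 groups gave an adjusted p of 0.046, and stg was the only member it called (1 of 44, against 4.26% of all genes).

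The stg call rested on few libraries. The joint call held in 3 of 12 fits without 1 library, which left out 25 µmol/L replicate 1 or 50 µmol/L replicate 1 or 2. Without DMSO replicate 1 the log2 fold change at 100 µmol/L was -1.37 with an edgeR adjusted p of 0.0871. Without 100 µmol/L replicate 2 it was -1.85 with an adjusted p of 0.0523, and without replicate 3 it was -1.38 with 0.113. With both libraries that stood apart in length dependence left out, it was -1.37 with an edgeR adjusted p of 0.0424, and with the length trend of each library taken out it was -1.62 with 0.0203. The sample titles carry numbers that fall into 4 runs, of unstated meaning, 3 of which hold a DMSO library. In these 3 runs, stg was below the DMSO library of its run in 6 of 6 treated libraries. Of the 100 µmol/L libraries only replicate 2 is among these 6, and the others are at 25 or 50 µmol/L. With the runs as a term in the fit, the log2 fold change was -1.31 and the edgeR adjusted p 0.528, and that fit called 1 gene of all those tested at 100 µmol/L. The run without DMSO holds 100 µmol/L replicates 1 and 3 and 50 µmol/L replicate 2. Run and concentration are thus partly confounded wherever this term is used. A call lost there cannot be told apart from a loss of information.

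The other Cdk genes showed no call. Cdk1, the mitotic kinase that Stg activates, had 33.2, 28.5 and 23.1 CPM in DMSO and 32.4, 30.9 and 26.8 CPM at 100 µmol/L, with log2 fold changes of 0.32, 0.13 and 0.09 (edgeR adjusted p = 0.409, 0.675 and 0.83). The groups overlapped, and the interval at 100 µmol/L ran from -0.28 to 0.46, so a 2-fold change in either direction lies outside it. The inhibitor dap (Dacapo, which blocks Cyclin E with Cdk2) had 19.7, 16.7 and 15.4 CPM in DMSO, 16.1, 25.2 and 22 at 25, 22, 17.3 and 10.6 at 50, and 20, 18.4 and 16 CPM at 100 µmol/L. Its groups overlapped throughout, and the log2 fold changes were 0.28, -0.05 and 0.06 (edgeR adjusted p = 0.602, 0.913 and 0.912). Cdk2, the S-phase kinase, lay at -0.06, -0.23 and -0.41, and its annotated exons share 1010 bases with CG17267 on the opposite strand, so its value is uncertain. Cdk4, the partner of Cyclin D, lay at 0.25, 0.01 and 0.10. Neither Cdk2 nor Cdk4 passed the threshold in any test.

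None of the 5 cyclins passed the threshold at any concentration. CycB, the main mitotic B-type cyclin, had 240, 209 and 210 CPM in DMSO, 204, 175 and 187 at 25, 216, 156 and 184 at 50, and 195, 191 and 192 CPM at 100 µmol/L. All 3 libraries at 25 and at 100 µmol/L were below all 3 DMSO libraries, while 50 µmol/L replicate 1 lay among them. Its log2 fold changes were -0.22, -0.24 and -0.19 (SE 0.112, 0.113 and 0.112; edgeR adjusted p = 0.369, 0.183 and 0.36). CycA, which acts in both S phase and mitosis, had 153, 113 and 129 CPM in DMSO, 113, 131 and 141 at 25, 139, 92.1 and 113 at 50, and 126, 141 and 114 CPM at 100 µmol/L. These overlapped at every concentration, with log2 fold changes of -0.04, -0.19 and -0.05 (edgeR adjusted p = 0.934, 0.413 and 0.873). CycE, the cyclin of S-phase entry, had the lowest level per kilobase and the largest SEs of the members: 9.97, 4.19 and 5.67 CPM in DMSO, 3.77, 2.79 and 6.78 at 25, 5.79, 3.41 and 4.21 at 50, and 5.32, 6.27 and 3.14 CPM at 100 µmol/L. Its log2 fold changes of -0.58, -0.55 and -0.46 had SEs of 0.394, 0.409 and 0.397 (edgeR adjusted p = 0.528, 0.409 and 0.547), so even a change of that size could not be told from none here. CycB3, a B-type cyclin of anaphase, lay at -0.20, -0.16 and -0.27 and CycD, the G1 cyclin, at 0.24, -0.08 and 0.22.

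Of the 4 E2F and RB genes, the 2 E2Fs lay on opposite sides of DMSO. E2f2, which represses target genes together with RB, lies at chromosome 2L, 21154293 to 21156749, on the minus strand. It had 52.2, 50.5 and 49.5 CPM in DMSO, 65.7, 57.2 and 63.2 at 25, 65.1, 65.5 and 57.3 at 50, and 70.4, 69.4 and 71.3 CPM at 100 µmol/L. The 9 treated libraries were all above the DMSO libraries, and the replicates of each group were close together. Its log2 fold change was 0.29 (SE 0.103, edgeR adjusted p = 0.17) at 25, 0.30 (SE 0.104, adjusted p = 0.0849) at 50 and 0.47 (SE 0.103, adjusted p = 0.015) at 100 µmol/L, a fold of 1.39 at the highest concentration with a 95% interval of 0.26 to 0.69 in log2 units. In the runs of title numbers with a DMSO library, 6 of 6 treated libraries were above it, and only replicate 2 of the 100 µmol/L libraries is among these 6.

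The E2f2 call at 100 µmol/L was also lost when 1 of 3 libraries was left out: the edgeR adjusted p was 0.0599 without DMSO replicate 3, 0.0616 without 100 µmol/L replicate 2 and 0.0775 without replicate 3, with log2 fold changes of 0.46, 0.47 and 0.46. It was 0.584 with the runs of title numbers as a term, at a log2 fold change of 0.38. Without the 2 libraries that stood apart the log2 fold change was 0.49 with an adjusted p of 0.0323, and with the length trend taken out it was 0.41 with 0.0258, both by edgeR. The annotated exons of E2f2 share 399 bases with Mpp6 on the opposite strand, and whether counting used the strand is not given in the sources used here. Of the 44 members, 16 share annotated exonic bases with a gene on the opposite strand and 0 with one on the same strand, so the values of these 16, CycE and Mps1 included, are uncertain to that extent. Mpp6 itself stood 0.12 log2 units above DMSO at 100 µmol/L (edgeR adjusted p = 0.805).

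E2f1, the activator of S-phase genes, lies at chromosome 3R, 21620304 to 21660871, on the minus strand. It had 47.7, 32.7 and 30 CPM in DMSO, 11.3, 23 and 29.2 at 25, 26.7, 8.53 and 12.6 at 50, and 23.5, 15.8 and 12.6 CPM at 100 µmol/L. Again the 9 treated libraries were all below the DMSO libraries, 1 of them only narrowly. The log2 fold changes of -0.80, -1.17 and -1.09 (SE 0.35, 0.365 and 0.357) did not pass the threshold, with edgeR adjusted p of 0.281, 0.0598 and 0.0864. E2f1 has one of the longest exonic lengths among the members, 6451 bases, and with each library's length trend taken out the values were -0.51, -0.69 and -0.70. Its annotated exons share 283 bases with asRNA:CR46055 on the opposite strand. Dp, the dimerization partner of both E2Fs, lay at -0.04, -0.26 and -0.09, and Rbf, the RB homologue, at -0.17, -0.23 and -0.03, with overlapping libraries. In CPM per kilobase, E2f2 went from 25.3 ± 0.684 (SD, n = 3) in DMSO to 35.1 ± 0.489 at 100 µmol/L, and E2f1 stood at 5.71 ± 1.47 and 2.68 ± 0.869.

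**Figure D3:**
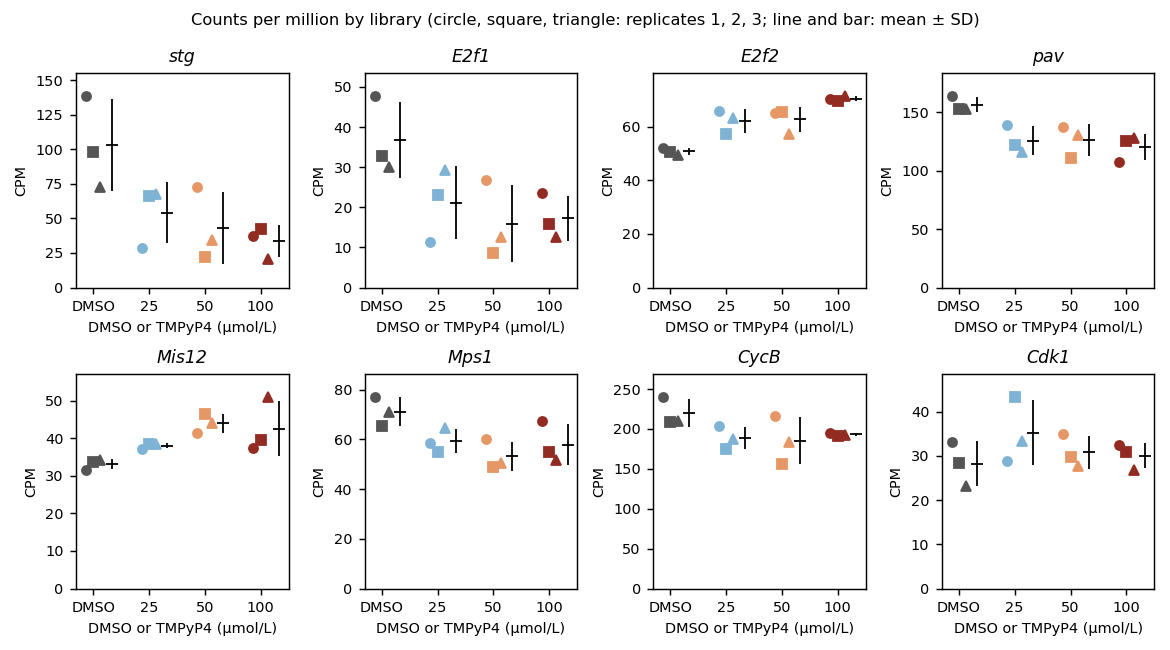
CPM of 8 members in each of the 12 libraries (circle, square and triangle for replicates 1, 2 and 3; line and bar, mean ± SD), by treatment group; each panel starts at 0. In the panels of stg, E2f1 and pav all 9 TMPyP4 libraries lie below the 3 DMSO libraries, in those of E2f2 and Mis12 all 9 lie above, and Cdk1 overlaps at each concentration.

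Counted over all members, 5 of 44 (11.4%) had all 9 treated libraries on one side of all 3 DMSO libraries, beside 8.15% of all genes tested: stg, E2f1 and pav below (3 of 44, beside 4.41% of all genes), E2f2 and Mis12 above (2 of 44, beside 3.74%). By concentration, the libraries did not overlap with DMSO for 11 members at 25 (25.0%, beside 19.4% of all genes), for 14 at 50 (31.8%, beside 25.7%) and for 15 at 100 µmol/L (34.1%, beside 27.1%). The sides were mixed: 4 members lay above and 7 below at 25 (10.8% and 8.62% of all genes), 8 above and 6 below at 50 (12.8% and 13%), and 6 above and 9 below at 100 µmol/L (13.7% and 13.4%).

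None of the 5 mitotic kinases and passenger proteins passed the threshold, and they were the one group of members in which no gene had libraries that separated from DMSO at any concentration. The kinase polo, which acts at centrosomes, kinetochores and the midzone, had 263, 282 and 276 CPM in DMSO, 249, 259 and 278 at 25, 276, 245 and 277 at 50, and 267, 253 and 248 CPM at 100 µmol/L. Its log2 fold changes were -0.06, -0.04 and -0.10 (SE 0.0906, 0.091 and 0.0907; edgeR adjusted p = 0.812, 0.817 and 0.588), and the interval at 100 µmol/L, -0.29 to 0.10, is among the narrowest of the members. The centrosomal kinase aurA lay at -0.11, 0.06 and 0.00. The passenger complex kinase aurB lay at -0.07, 0.21 and 0.15, its scaffold Incenp at -0.14, 0.06 and -0.09, and its subunit borr at -0.13, 0.07 and -0.04.

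None of the 7 spindle checkpoint members was called by edgeR. Mps1, the kinase that starts checkpoint signalling, had 76.9, 65.4 and 70.8 CPM in DMSO, 58.7, 55 and 64.4 at 25, 60, 49 and 50.3 at 50, and 67.2, 54.8 and 51.6 CPM at 100 µmol/L; it and the genes pav, Bub1 and Mis12 are described here for values already seen, since the naming rule did not select them. All libraries at 25 and 50 µmol/L were below DMSO and 1 at 100 µmol/L overlapped, and the log2 fold changes were -0.26, -0.42 and -0.30 (edgeR adjusted p = 0.333, 0.0582 and 0.181). Bub1, a kinase that recruits other checkpoint proteins to the kinetochore, had 15.3, 6.15 and 8.19 CPM in DMSO and 5.79, 5.85 and 3.84 CPM at 50 µmol/L, all lower, at -0.95 in log2 units (SE 0.323, edgeR adjusted p = 0.0838). At 25 and 100 µmol/L it lay at -0.49 and -0.32 and its libraries overlapped with DMSO. On the other side of DMSO, all 3 libraries of Zw10 were higher at 50 and 100 µmol/L and all 3 of Zwilch at 50 µmol/L, by 0.16 and 0.06 and by 0.16 in log2 units, none of them called. Zw10, rod and Zwilch, the complex that brings dynein to kinetochores, lay between -0.33 and 0.16 over the 3 concentrations, Bub3 between -0.06 and 0.04, and BubR1 between -0.18 and -0.07.

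The APC/C group had no call. The activator fzy, which directs the APC/C against securin and mitotic cyclins, had 283, 316 and 317 CPM in DMSO, 335, 288 and 260 at 25, 334, 335 and 367 at 50, and 318, 320 and 320 CPM at 100 µmol/L. All libraries at 50 and at 100 µmol/L were above DMSO, by a small margin at 100, and the log2 fold changes were -0.05, 0.18 and 0.06 (SE 0.103 at each; edgeR adjusted p = 0.864, 0.281 and 0.781). Its annotated exons share 62 bases with cact on the opposite strand. The other activator, fzr (the Cdh1 homologue, active from late mitosis to G1), had 8.44, 5.1 and 5.15 CPM in DMSO, 6.41, 4.83 and 7.78 at 25, 4.34, 2.19 and 2.93 at 50, and 4.8, 8.09 and 6.71 CPM at 100 µmol/L. Only the 50 µmol/L libraries were all below DMSO, and the log2 fold changes were 0.02, -0.95 and 0.05 (SE 0.32, 0.354 and 0.323; edgeR adjusted p = 0.984, 0.105 and 0.95). Securin (pim) lay at 0.19, 0.15 and 0.25, and separase (thr), the protease that opens cohesin, at -0.04, -0.17 and 0.27.

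None of the 8 kinesins and central spindle genes was called, and all 8 lay below DMSO at 25 µmol/L, where their median was -0.20 in log2 units; 34 of all 44 members lay below there, including all 7 checkpoint genes and all 5 mitotic kinases and passenger genes. At 50 µmol/L 5 of them lay below and at 100 µmol/L 7, with medians of -0.04 and -0.15. The one nearest the threshold was pav, the kinesin of the centralspindlin complex that sets the cleavage plane, with 164, 153 and 153 CPM in DMSO, 139, 122 and 116 at 25, 137, 111 and 130 at 50, and 108, 125 and 128 CPM at 100 µmol/L. Its 9 treated libraries were all below DMSO, and the log2 fold changes were -0.31, -0.31 and -0.38 (SE 0.107, 0.108 and 0.108; edgeR adjusted p = 0.153, 0.0914 and 0.0501). Its partner in centralspindlin, tum, lay at -0.07, 0.15 and 0.01 with overlapping libraries. The spindle kinesin ncd lay at -0.20, 0.05 and -0.15, the bipolar motor Klp61F at -0.21, -0.04 and -0.15, the midzone bundler feo at -0.20, 0.07 and -0.16, and Klp10A, Klp67A and Klp3A, which act on spindle length and the midzone, between -0.32 and -0.04. With each library's length trend taken out, the number of these 8 below DMSO was 7, 1 and 6 at 25, 50 and 100 µmol/L, and with the runs of title numbers as a term it was 8, 3 and 3, so the side at 50 and 100 µmol/L depends on the fit.

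The 6 centromere and kinetochore members held values on both sides, none of them called. Cenp-C, which anchors the kinetochore to the centromere, had 17.5, 9.16 and 11.3 CPM in DMSO, 5.91, 7.88 and 10.9 at 25, 9.33, 3.9 and 7.32 at 50, and 8.95, 4.85 and 4.33 CPM at 100 µmol/L. The libraries at 100 µmol/L were all below DMSO and those at 25 and 50 overlapped, and the log2 fold changes were -0.63, -0.86 and -1.06 (SE 0.344, 0.359 and 0.355; edgeR adjusted p = 0.415, 0.143 and 0.0912). Cenp-C stood at -0.46, -0.53 and -0.84 with the length trend taken out, at -0.32, -0.55 and -0.76 without DMSO replicate 1, and at -0.33, -0.30 and -0.76 without the 2 libraries that stood apart. Mis12, a subunit of the kinetochore core, had 31.6, 33.8 and 34.2 CPM in DMSO, 37.2, 38.4 and 38.4 at 25, 41.5, 46.5 and 44.1 at 50, and 37.3, 39.4 and 51 CPM at 100 µmol/L, all 9 above DMSO, with log2 fold changes of 0.19, 0.41 and 0.36 (edgeR adjusted p = 0.522, 0.0729 and 0.115). The microtubule-binding Ndc80 complex followed the same side at 50 µmol/L, with Ndc80, Nuf2 and Spc25 at 0.24, 0.39 and 0.34 and all libraries above DMSO, none of them past the threshold. The median of all 6 members at 50 µmol/L was 0.29 in the main fit, with 5 above DMSO. With the length trend taken out it was 0.16, with 4 above. The centromeric histone cid lay at -0.02, 0.08 and 0.15. Cenp-C has a long transcript of 4682 exonic bases and Mis12 a short one of 839.

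**Figure D4:**
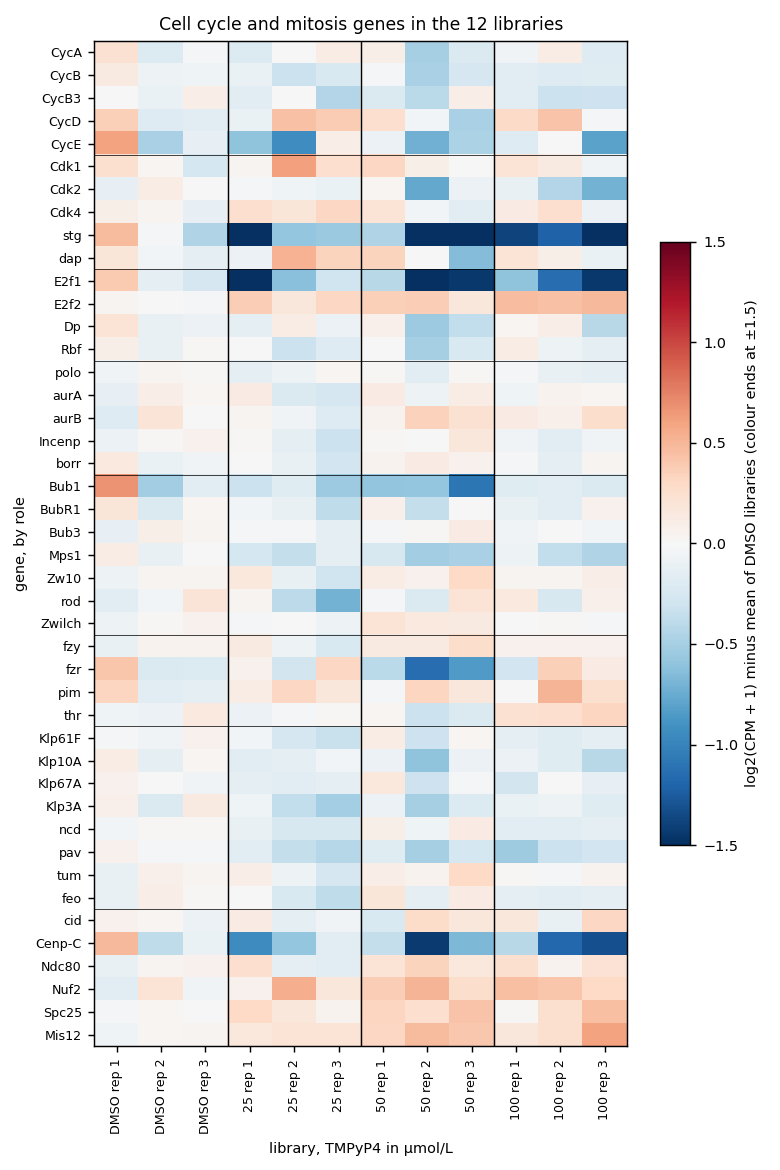
Log2(CPM + 1) of each member in each of the 12 libraries, relative to its mean over the DMSO libraries (colour, ending at 1.5 log2 units in each direction), members in rows grouped by role. The rows of stg, E2f1 and Cenp-C are among the darkest on the low side, most rows are pale, and DMSO replicate 1 and 50 µmol/L replicate 2 differ from the other libraries of their groups.

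The 3 concentrations were not told apart. The edgeR tests of 50 against 25, 100 against 25 and 100 against 50 µmol/L called 0 members each, beside 0.3%, 0.205% and 0.0409% of all genes, and DESeq2 also called 0. Members at an unadjusted p under 0.05 numbered 5, 0 and 3, beside 10.9%, 5.91% and 6.5% of all genes. For stg the log2 difference between 100 and 25 µmol/L was -0.71 (95% interval -1.51 to 0.08, edgeR adjusted p = 0.854), and between 100 and 50 µmol/L it was -0.41 (interval -1.23 to 0.40, adjusted p = 0.85). For E2f2 these differences were 0.18 (interval -0.03 to 0.40) and 0.17 (interval -0.05 to 0.39). The largest difference between concentrations was that of fzr, 1.00 higher at 100 than at 50 µmol/L (interval 0.25 to 1.76, edgeR adjusted p = 0.674). The order of the group means of stg, 103, 54.1, 43.2 and 33.5 CPM, falls with concentration, but neighbouring concentrations were not separated and the order rests on 50 µmol/L replicate 1: without it the difference of stg between 100 and 50 µmol/L was 0.19 in log2 units, the other way.

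A member's difference from DMSO went with its length. Across the 44 members, Pearson's r between log2 fold change and log2 exonic length was -0.63, -0.61 and -0.51 at 25, 50 and 100 µmol/L, and across 7263 genes with a length it was -0.49, -0.58 and -0.51; these are descriptions over genes that share the same libraries and the same DMSO samples. Longer members tended to lie lower and shorter ones higher. The slope of level on length in single libraries was 0.0545 to 0.264 in DMSO and -0.222 to 0.0285 in the treated libraries, so the DMSO libraries had relatively more reads on long genes. The median exonic length was 2643.5 bases for the members and 2084 for all genes tested. RNA quality values were not used here, and the part of the length trend in the differences above was not tested beyond the values with the trend taken out: stg and E2f2 kept their calls at 100 µmol/L there, and the stg joint test did not.

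**Figure D5:**
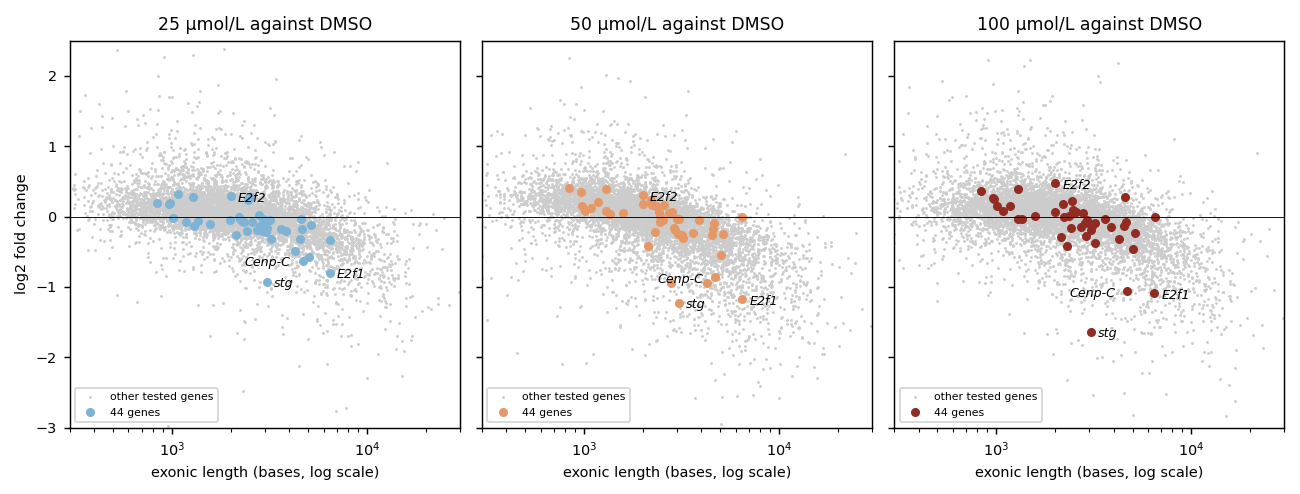
Log2 fold change against DMSO (vertical axis, log2 units, drawn from -3 to 2.5) on exonic length in bases (horizontal log axis) for all genes tested (grey) and the 44 members (coloured), 1 panel for each concentration. Members and all genes slope downwards alike, with r of -0.63, -0.61 and -0.51 for the members, and stg lies below the other members of its length.

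Further genes of the division machinery, 124 in the table and 121 tested, gave calls at every concentration. These lists cover other Cdk regulators, APC/C subunits, other kinetochore and checkpoint genes, spindle microtubule genes, centrosome and centriole genes, cohesin and condensin, and cytokinesis. At 25 µmol/L 2 of 121 fell and 0 rose (1.65%), at 50 µmol/L 9 fell and 4 rose (10.7%), and at 100 µmol/L 4 fell and 4 rose (6.61%), beside 1.66%, 6.85% and 5.17% of all genes and 0, 0 and 2 of the 44 members. By direction, 0.532% of all genes rose and 1.13% fell at 25 µmol/L, and 1.69% rose and 5.16% fell at 50 µmol/L. The median log2 fold changes of the lists were -0.07, -0.09 and -0.02.

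CycG, a cyclin with roles in growth and genome stability, fell at all 3 concentrations. It had 90.8, 51.5 and 64 CPM in DMSO, 27.8, 39 and 44.2 at 25, 28.8, 22.4 and 25.6 at 50, and 42.1, 32.4 and 27.2 CPM at 100 µmol/L, with no overlap. The log2 fold changes were -0.90, -1.42 and -1.02 (edgeR adjusted p = 0.0403, 0.00432 and 0.0123), and with the length trend taken out -0.62, -0.91 and -0.65 (adjusted p = 0.0648, 0.0199 and 0.0279). Its annotated exons share 331 bases with Med on the opposite strand. Spc105R, the kinetochore scaffold that binds checkpoint proteins, also fell at all 3, from 19.6, 14.9 and 13.5 CPM in DMSO to 6.66, 6.99 and 8.91 at 25, 7.72, 6.58 and 6.59 at 50, and 9.08, 6.47 and 5.41 CPM at 100 µmol/L. Its log2 fold changes were -1.09, -1.20 and -1.20 (edgeR adjusted p = 0.0332, 0.0156 and 0.0123), and with the length trend taken out -0.82, -0.70 and -0.83 (adjusted p = 0.0809, 0.138 and 0.0412). With the 2 libraries that stood apart left out, the edgeR adjusted p at 25, 50 and 100 µmol/L was 0.132, 0.0875 and 0.049 for CycG and 0.114, 0.246 and 0.0526 for Spc105R. Only the CycG call at 50 µmol/L held in all 6 fits without 1 of its libraries.

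Among the same lists, cmet, a kinetochore motor of the CENP-E type, fell at 50 and 100 µmol/L by 1.69 and 1.36 on the log2 scale (edgeR adjusted p = 0.0164 and 0.0338). The spindle-orientation gene mud fell by 0.97 and 0.80 (edgeR adjusted p = 0.0189 and 0.0385), but 8769 of its exonic bases are shared with the antisense gene asRNA:CR46473, so its value is uncertain. At 50 µmol/L only, the threshold was passed by fwd, a lipid kinase of cytokinesis, at -1.20, by the cohesin loader Nipped-B at -1.77, by the microtubule polymerase msps at -0.64 and by the centriole and centrosome genes ana1 and Plp at -0.80 and -0.72. With the length trend taken out, Plp turned to 0.079 at 50 µmol/L, msps was -0.032, ana1 -0.34, fwd -0.61 and Nipped-B -1.22, and mud was -0.25 at 50 and -0.20 at 100 µmol/L, none of them called. The edgeR tests between concentrations called none of the 121 genes, with 12, 3 and 8 at an unadjusted p under 0.05. These are 9.92%, 2.48% and 6.61% of the lists, beside 10.9%, 5.91% and 6.5% of all genes. The 4 that rose did so at both 50 and 100 µmol/L: wac, a subunit of the spindle-nucleating augmin complex, by 0.57 and 0.69 (edgeR adjusted p = 0.0322 and 0.0131), CycH, the cyclin of the Cdk-activating kinase, by 0.43 and 0.48 (0.0407 and 0.027), mip40, a subunit of the Myb and RB repressor complex, by 0.50 and 0.45 (0.0206 and 0.0335), and SkpA, a core subunit of SCF ubiquitin ligases, by 0.48 and 0.35 (0.0124 and 0.0449). The 9 that fell have exonic lengths of 5610 to 10794 bases and the 4 that rose 853 to 1786, and with the length trend taken out the calls in these lists numbered 0 at 25, 2 at 50 (SkpA higher, CycG lower) and 3 at 100 µmol/L (wac higher, Spc105R and CycG lower). No gene of the APC/C subunit list was called at any concentration, by edgeR or DESeq2. In edgeR 1, 3 and 1 of 12 tested had an unadjusted p under 0.05 (8.33%, 25% and 8.33%), beside 15.6%, 26.2% and 21.8% of all genes. With the runs of title numbers as a term, 0 of the 121 genes were called by edgeR at any concentration. That fit called 0.164%, 0% and 0.0136% of all genes at 25, 50 and 100 µmol/L. CycG at 50 µmol/L came nearest, at -1.37 with an edgeR adjusted p of 0.0508. Of the 23 calls in these lists, 21 were lost without DMSO replicate 1, 4 without DMSO replicate 2 and 13 without DMSO replicate 3. All 8 calls at 100 µmol/L were lost without its replicate 2 and again without its replicate 3, 12 of the 13 at 50 µmol/L likewise without its replicate 2 or replicate 3, and both calls at 25 µmol/L without any 1 of its replicates.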

How the data were processed

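Poly(A)-selected, stranded (dUTP) libraries were sequenced on a HiSeq X instrument, per the labels. Per the submitters' processing notes, FastQC 0.11.8, MultiQC 0.9, HISAT2 2.0.5, SAMtools 1.7 and HTSeq 0.9.1 were used with the build dm6; the annotation, the strand setting and the handling of zebrafish reads are not given in the sources used here. The authors deposited whole-number read counts per gene. The 5 entries outside genes were left out of library sizes (no feature 0.783 to 1.04% and ambiguous 1.87 to 2.71% of all counts, these entries included). Names, positions and exonic lengths came from the Ensembl annotation BDGP6.54, which has dm6 coordinates and matched 17358 of 17494 identifiers. Low-count genes were dropped by filterByExpr (count 10, total 15), and the rest scaled with TMM and tested in 1 edgeR 4.0.16 quasi-likelihood fit of 12 libraries in R 4.3.3, with 7 two-sided tests. Each SE was taken from F, as the size of the log2 difference over its root. DESeq2 1.42.0 was an alternative. The fit was tested on simulated counts that had the same spread for every gene and no length trend. These data differ in both, so that test does not show how the fit performs on them. The members, lists and tests were chosen with earlier results of these data known. Described in full were members past the threshold in any test, the 3 with the largest difference from DMSO at each concentration, and CycA, CycB, CycE, Cdk1, stg, dap, E2f1, polo and fzy; from each further list, the called genes, at most 4 by joint p. The length offset removed each library's smooth trend on log2 exonic length. Further genes zip and Nplp2 were not used.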

Additional observations from a re-analysis of the deposited data

How the results depend on the processing

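Counts of called members depended on the tool, the filter and single libraries. DESeq2 called 1 member at 50, 4 at 100 µmol/L and 3 in the joint test, beside 10.5%, 7.75% and 9.62% of all genes. With no filter on low counts edgeR called 2, 5 and 5 members at 25, 50 and 100 µmol/L, beside 4.05%, 9.23% and 6.78% of all genes. It also called 1 between 100 and 25 µmol/L and 4 in the joint test, beside 0.611% and 9.48%. With only the 2 groups compared in the fit, 4 members were called at 100 µmol/L, beside 7.24% of all genes. The joint test called 0 members with the length offset, with the title number block and without the 2 libraries that stood apart (chosen after seeing the data), and the title number block left 0 at 100 µmol/L. Those joint tests called 2.28%, 0.218% and 1.4% of all genes, and the title number block called 0.0136% at 100 µmol/L. Without 1 library the counts ran from 0 to 7 at 50, 0 to 3 at 100 µmol/L and 0 to 3 in the joint test. The share of all genes called in the same fits ran from 0.671% to 16.6%, 1.2% to 6.12% and 1.17% to 10.8%. Over 18 pairs of libraries with the same replicate number, correlations of deviations ran from -0.378 to 0.442, with 6 over 0.1. Pairs with different numbers were not compared, so whether replicate numbers pair the samples is not settled. With the replicate block 3 members were called at 50 µmol/L, stg, E2f1 and Mps1, and the other counts stayed at 0, 2 and 1. Of all genes, that fit called 2.03%, 8.67% and 6.09% at 25, 50 and 100 µmol/L and 5.35% in the joint test.

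Among the members described in full, some values changed sign between fits, none of them called. For fzr at 25 µmol/L the log2 fold change was -0.0046 with DESeq2's size factors, -0.0045 with DESeq2 and -0.0027 with no filter. Without the 2 libraries CycA was 0.071, 0.056 and 0.064 at 25, 50 and 100 µmol/L, and dap was 0.029 at 50 µmol/L. CycE at 50 µmol/L, at -0.55 in the main fit and so not near 0, was 0.017 without these 2 libraries. With the title number block CycA was 0.18 and dap -0.19 at 100 µmol/L. With the length offset Cdk1 was -0.069 and -0.058 at 50 and 100 µmol/L, and polo 0.051 at 50 µmol/L. Fits without 1 library gave fzr -0.15 to 0.305 at 25 and -0.122 to 0.335 at 100 µmol/L, CycA -0.156 to 0.0796 and -0.163 to 0.0657 at the same, Cdk1 -0.00026 to 0.26 and -0.0414 to 0.22 at 50 and 100, dap -0.327 to 0.195 and -0.0135 to 0.17 at 50 and 100, polo -0.0664 to 0.010 at 50 and fzy -0.155 to 0.029 at 25 µmol/L. The causes were not tested. For the 12 members described in full, 449 of 504 alternative values kept their direction and their side of the threshold. Another 31 changed direction, 16 gained a call and 8 lost one. Of the 36 results behind these values only 2, stg and E2f2 at 100 µmol/L, were calls, so most values that kept their side were uncalled throughout. Each of these 2 calls held in 3 of 6 fits without 1 library. SEs above 0.3 were found for CycE, fzr and Bub1, with under 10 CPM on average in DMSO, and also for Cenp-C, E2f1 and stg at higher levels.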
